A study of Mus musculus with 6 samples.

Results

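The genes on either side of *Slc13a4* on mouse chromosome 6 were compared between *Slc13a4*+/- and wild-type forebrain. They are the protein-coding genes of GENCODE M21 (GRCm38) that overlap the window reaching 5 Mb beyond each end of *Slc13a4*. From these, 6 genes were set aside and are not members: *Slc13a4* itself, *Mest*, *Klf14*, *Copg2*, *Ndufb2* and *Mrps33*. The window holds 71 protein-coding genes, and 65 remained without the 6. Of these, 54 had at least 10 estimated reads in at least 3 of the 6 mice and are the members described here, out of 35523 genes in the deposited files. The other 11 fell under the read minimum. Just inside it were *Svopl* (5 to 15 estimated reads) and *Cpa4* (8 to 17), and just outside it were *Ssmem1* (6 to 12) and *Akr1d1* (4 to 10).

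A mutation made in one strain and bred into another carries the chromosome next to it, because recombination rarely separates close neighbours. Such a passenger segment can hold variants that alter the level or splicing of genes in it, and a deletion can also alter nearby genes by removing regulatory DNA or an insulator. Both are matters of the chromosome and not of the sulfate transporter that *Slc13a4* encodes, so the level of each neighbour in mutant and control animals is a usual check of a mouse model.

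RNA was sequenced from whole forebrain at postnatal day 20 from 3 *Slc13a4*+/- mice (Nas2Del_Het_1024, Nas2Del_Het_1025 and Nas2Del_Het_1027) and 3 wild-type mice (Nas2Del_WT_1016, Nas2Del_WT_1018 and Nas2Del_WT_1026), and values of single mice follow this order throughout. All were C57BL/6 and came from heterozygous fathers and wild-type mothers. The tissue is an average over every cell type of the forebrain, so fewer cells of a type and less RNA per cell cannot be told apart. The sources used here give neither the litter nor the sex of each animal. They also do not give the part of the gene that is deleted or the strain in which the deletion was made. *Ddx3y*, a gene of the Y chromosome, was high in Nas2Del_WT_1016 only, with values given at the end.

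The libraries held 60340337 to 80410582 estimated counts, of which the 54 members took 0.327% to 0.34%. All 11 forebrain markers were detected (summed level 488 to 516 CPM in *Slc13a4*+/- and 468 to 543 in wild-type), and 8 of 10 hindbrain and cerebellum markers were under 1 CPM in every mouse. CPM is the count scaled to a library of 1000000 after TMM normalization. Nas2Del_WT_1026 stood farthest from its genotype mates: the median gene differed from them by 0.082 on the log2 scale, against 0.046 to 0.066 in the other mice. Over the members these values were 0.096 and 0.035 to 0.074.

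The sequence before the start of 3 genes is shown because they carry the comparison: *Slc13a4*, the gene the genotype alters, *Fam180a*, the nearest member, and *Trim24*, the member with the smallest p. Each is the 250 bases upstream of the RefSeq start on GRCm38.p6, written 5′ to 3′ along the gene. Capitals mark the CCAAT box (CCAAT or ATTGG) and the GC box (GGGCGG or CCGCCC), searched on both strands. The TATA box (TATAAA or TTTATA) was searched too and was in none of the 3.
*Slc13a4*, chr6:35308127-35308376, minus strand: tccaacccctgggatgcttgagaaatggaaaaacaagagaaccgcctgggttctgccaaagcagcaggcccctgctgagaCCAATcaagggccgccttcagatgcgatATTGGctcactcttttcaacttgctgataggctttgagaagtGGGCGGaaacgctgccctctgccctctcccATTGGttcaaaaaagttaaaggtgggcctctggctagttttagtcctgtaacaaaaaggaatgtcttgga
*Fam180a*, chr6:35326142-35326391, minus strand: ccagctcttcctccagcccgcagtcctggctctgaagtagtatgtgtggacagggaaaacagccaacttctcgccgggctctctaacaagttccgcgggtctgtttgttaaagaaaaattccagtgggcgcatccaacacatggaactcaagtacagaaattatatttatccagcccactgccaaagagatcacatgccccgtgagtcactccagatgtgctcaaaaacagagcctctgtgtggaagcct
*Trim24*, chr6:37870561-37870810, plus strand: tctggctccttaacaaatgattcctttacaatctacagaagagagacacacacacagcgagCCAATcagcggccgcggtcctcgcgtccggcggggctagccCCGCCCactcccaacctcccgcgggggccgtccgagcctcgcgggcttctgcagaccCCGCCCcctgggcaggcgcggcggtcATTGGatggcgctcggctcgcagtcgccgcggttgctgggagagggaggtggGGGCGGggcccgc

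The *Slc13a4* stretch held 3 CCAAT boxes and 1 GC box, with 5 CG dinucleotides and a GC content of 50.4%. The *Trim24* stretch held 2 CCAAT boxes and 3 GC boxes, with 27 CG dinucleotides and a GC content of 69.6%. The *Fam180a* stretch had the same GC content as that of *Slc13a4*, 7 CG dinucleotides and neither box, which says only that those letters are not in this window. Among 32851 RefSeq stretches of the same length, 33.8% held a CCAAT box, 32.7% a GC box and 12.4% a TATA box, and the median number of CG dinucleotides was 6.0.

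*Slc13a4* itself (chr6:35267957-35308131, minus strand) was measured first, as the check of the genotype. Its level was 5.6, 6.57 and 5.41 CPM in the *Slc13a4*+/- mice and 10.4, 9.36 and 8.23 CPM in the wild-type mice. The genotypes did not overlap. The log2 fold change of *Slc13a4*+/- over wild-type was -0.67 (SE 0.11, 95% interval -0.92 to -0.43). Its adjusted p was 0.499 by the edgeR quasi-likelihood test with Benjamini-Hochberg adjustment over 17096 genes, and 0.00238 by the DESeq2 Wald test, where the log2 fold change was -0.63. Without Nas2Del_WT_1026 the edgeR values were -0.76 and an adjusted p of 0.0588. The gene is known for its expression in choroid plexus and meninges. The summed level of 8 choroid plexus markers was 394 to 457 CPM in *Slc13a4*+/- and 476 to 483 CPM in wild-type, with 4 of the 8 at an unadjusted p under 0.05 in edgeR, and the part this has in the *Slc13a4* difference was not tested. No choroid plexus marker was at 0, and the sum was mostly that of the highest marker (403 CPM, against a median marker at 3.94 CPM). The summed meningeal markers overlapped between genotypes (432 to 484 and 338 to 530 CPM), with the highest marker at 294 CPM and the median marker at 26.7 CPM. Microglial markers summed to 356 to 369 CPM in *Slc13a4*+/- and 382 to 391 CPM in wild-type (2 of 6 at that p), and endothelial markers to 168 to 180 and 185 to 196 CPM (3 of 5), both without overlap. Their part in the difference was not tested either.

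No change was called in any of the 54 neighbours. No member passed an adjusted p of 0.1 in edgeR, where 1 of 17096 genes tested (0.00585%) did. *Slc13a4* itself did not pass it, so the lack of a call at this threshold says little about the members. At an unadjusted p under 0.05 there were 2, which is 3.7% of the members against 9.15% of all genes tested. Both were higher in *Slc13a4*+/-: *Trim24* and *Slc23a4*. Without Nas2Del_WT_1026 there were 12 of the 54, a larger share than the 18.0% of all genes tested. Of these 12, 8 were higher and 4 lower, and 0 members were called, against 1.29% of all genes. DESeq2 with transcript lengths as offsets called no member either, where 0.502% of all genes were called, and put 0 at an unadjusted p under 0.05, against 4.30%. The smallest adjusted p of a member in edgeR was 0.499. The log2 fold changes split into 28 above 0 and 26 below, with a median of 0.003 (all genes -0.005). The median size of the change without its sign was 0.057 (all genes 0.062), beside a median SE of 0.061 (all genes 0.063).

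These data also bound how far the total level of a neighbour could have moved. The total adds the alleles of both chromosomes, so a change in the allele beside the deletion alone would be diluted in it. The alleles were not measured apart. In edgeR, the 95% interval of the fold change lay within 1.2-fold in both directions for 39 of the 54 members (72.2%), and within 1.5-fold for 46. Of all genes tested, 59.5% had an interval within 1.2-fold, and their median level was 17.3 CPM against 26.4 CPM for the members. Among the 48 members with a mean of at least 1 CPM, the log2 change with the greatest size was 0.19. The 6 members under 1 CPM (*Svopl*, *Cpa4*, *Atp6v0a4*, *Slc23a4*, *Klrg2* and *Akr1b8*) had wide intervals. The log2 change of *Slc13a4*, -0.67, lay inside the intervals of *Klrg2*, *Cpa4*, *Svopl* and *Fam180a*. A drop of that size was therefore not excluded in them at this depth. These bounds are those of edgeR and depend on the tool. In DESeq2 with transcript lengths as offsets the SE of *Trim24* was 0.08, against 0.04 in edgeR. *Atp6v0a4* was there at -0.55 (SE 0.6) and *Akr1b8* at -0.15 (SE 0.44), so such a drop was not excluded in these either.

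**Figure D1:**
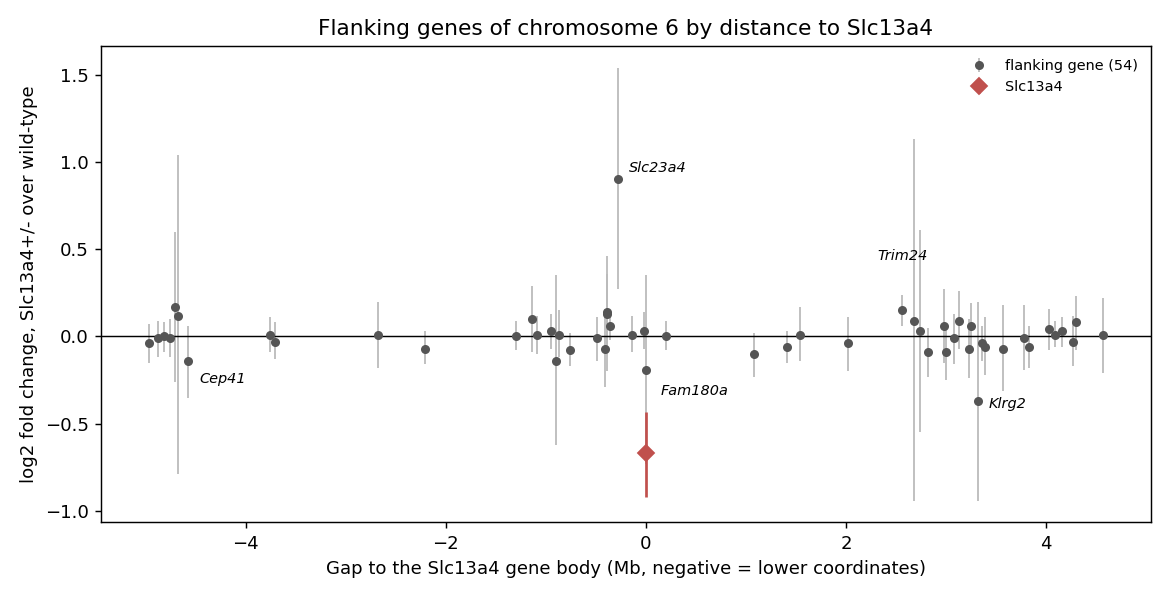
Log2 fold change of *Slc13a4*+/- over wild-type (vertical axis) against the gap in Mb between each gene and *Slc13a4* (horizontal axis) for the 54 flanking genes (grey points) and *Slc13a4* (red diamond), with 95% intervals as lines, n = 3 mice per genotype. *Slc13a4* sits at -0.67, and the only flanking genes with a fold over 1.2 are *Slc23a4* (0.90) and *Klrg2* (-0.37), both under 1 CPM.

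*Fam180a* lies 4.5 kb from *Slc13a4* on the same strand. It was at 1.78, 2.11 and 2.53 CPM in *Slc13a4*+/- and 3.12, 2.63 and 1.6 CPM in wild-type. The genotypes overlapped, with Nas2Del_WT_1026 the lowest of all 6 mice and Nas2Del_WT_1016 the highest. The log2 fold change was -0.19 (SE 0.24, 95% interval -0.73 to 0.35).

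On the other side, 20.4 kb away, lies *Nup205*, a scaffold protein of the nuclear pore. Its level was 36.2, 38.8 and 40.2 CPM in *Slc13a4*+/- and 37.6, 36.7 and 38.3 CPM in wild-type, and the wild-type values fell inside the *Slc13a4*+/- range. The log2 fold change was 0.03 (SE 0.05, 95% interval -0.07 to 0.14).

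*Cnot4*, an E3 ubiquitin ligase tied to the CCR4-NOT deadenylase, is 134.2 kb away and had a log2 fold change of 0.01 (SE 0.05). *Mtpn*, which encodes the ankyrin repeat protein myotrophin, is 200.8 kb away on the far side and was at 438, 422 and 437 CPM in *Slc13a4*+/- and 429, 424 and 442 CPM in wild-type. The values interleaved. Its log2 fold change was 0.00 (SE 0.04, 95% interval -0.08 to 0.09).

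*Slc23a4*, 279.6 kb away (chr6:34945278-34988404, minus strand), belongs to the family of sodium-dependent ascorbate and nucleobase transporters. It held only 11 to 28 estimated counts per mouse. Its level was 0.27, 0.405 and 0.321 CPM in *Slc13a4*+/- and 0.165, 0.199 and 0.167 CPM in wild-type. The genotypes did not overlap. The log2 fold change was 0.90 (SE 0.28, 95% interval 0.27 to 1.54), with an adjusted p of 0.499 by edgeR quasi-likelihood. With transcript lengths as offsets it was 0.56 in edgeR, and it was 0.57 in DESeq2 with an adjusted p of 0.972.

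*Wdr91*, 357.1 kb away, acts in the maturation of endosomes. It was at 26.8, 26.7 and 27.9 CPM in *Slc13a4*+/- and 25.5, 26.2 and 26.3 CPM in wild-type. All 3 *Slc13a4*+/- mice were above all wild-type mice, by a log2 fold change of 0.06 (SE 0.04). *Cyren*, a regulator of DNA end joining, is 389.9 kb away and had a log2 fold change of 0.14 (SE 0.09).

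Farther out on the side of higher coordinates, *Chrm2*, the M2 muscarinic acetylcholine receptor, is 1080.0 kb away. It was at 40.5, 42.6 and 36.8 CPM in *Slc13a4*+/- and 41.6, 43.8 and 43.4 CPM in wild-type, a log2 fold change of -0.10 (SE 0.06) between overlapping genotypes. *Ptn*, at 1406.8 kb, encodes pleiotrophin, a growth factor that binds sulfated glycosaminoglycans. It had the highest level of the members by TPM, the length-scaled unit (478), and a log2 fold change of -0.06 (SE 0.04, 95% interval -0.15 to 0.03). *Dgki*, a diacylglycerol kinase, at 1537.9 kb, had 0.01 (SE 0.07).

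**Figure D2:**
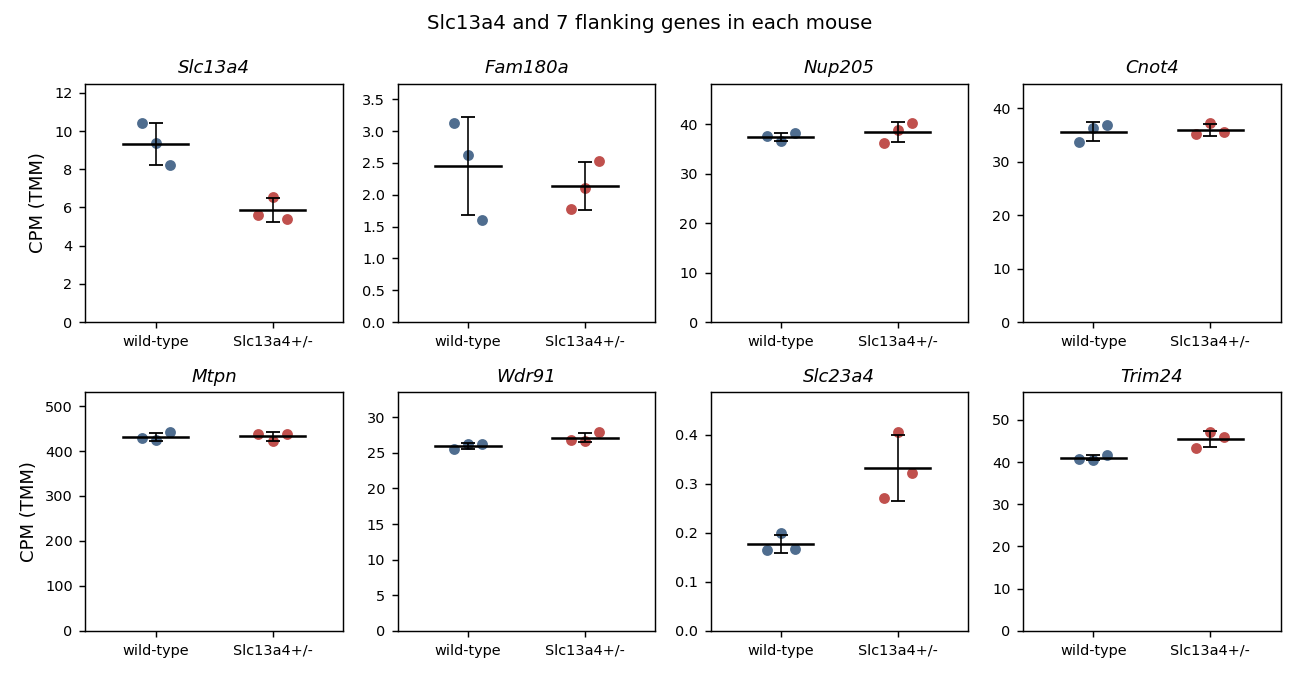
Level in CPM (vertical axes, from 0) of *Slc13a4* and 7 flanking genes in each of 3 wild-type mice (blue) and 3 *Slc13a4*+/- mice (red). Horizontal lines are means and error bars are SD. *Slc13a4* separates by genotype (5.41 to 6.57 against 8.23 to 10.4 CPM), *Fam180a*, *Nup205*, *Cnot4* and *Mtpn* overlap, and *Wdr91*, *Slc23a4* and *Trim24* are higher in *Slc13a4*+/-, at 0.06, 0.90 and 0.15 on the log2 scale.

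*Trim24*, an E3 ubiquitin ligase and cofactor of nuclear receptors, was the member with the smallest p (chr6:37870811-37966296, plus strand, 2562.7 kb away). Its level was 43.4, 47.1 and 46.0 CPM in *Slc13a4*+/- and 40.8, 40.6 and 41.7 CPM in wild-type, without overlap. The log2 fold change was 0.15 (SE 0.04, 95% interval 0.06 to 0.24), with an adjusted p of 0.499 by edgeR quasi-likelihood. It was 0.10 in DESeq2 with transcript lengths as offsets, with an adjusted p of 0.927, and 0.08 in edgeR without retained-intron transcripts, with an adjusted p of 0.699.

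In all, 3 of 54 members (5.56%) had genotypes that did not overlap, *Trim24*, *Slc23a4* and *Wdr91*, against 15.0% of all genes tested. All 3 were higher in *Slc13a4*+/-, as were 7.26% of all genes, while 7.70% of all genes were lower in every *Slc13a4*+/- mouse. Leaving out a mouse can raise this count but not lower it. It was 12 members without Nas2Del_Het_1024 (25.5% of all genes), 6 without Nas2Del_Het_1025 (23.5%) and 5 without Nas2Del_Het_1027 (22.0%). It was 9 without Nas2Del_WT_1016 (22.5%), 4 without Nas2Del_WT_1018 (24.7%) and 22 without Nas2Del_WT_1026 (37.5%). Only without Nas2Del_WT_1026 was the members' share above that of all genes.

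The size of the differences was then set against distance to *Slc13a4*. Of the 14 members within 1.0 Mb, 1 was at an unadjusted p under 0.05 in edgeR and the median size of the log2 change was 0.065. Of the 8 members from 1.0 to 2.5 Mb it was 0 and 0.050, and of the 32 members from 2.5 to 5.0 Mb it was 1 and 0.048. Across the 54 genes, Spearman's rho between distance and the size of the change was -0.16 (Pearson's r -0.20), and between level and the size of the change it was -0.54. Genes of one chromosome measured in the same 6 libraries are not independent points, so these are descriptions. The ends of the window were *Ube2h*, an E2 ubiquitin-conjugating enzyme 4963.4 kb away, at -0.04, and *Tmem178b*, 4565.1 kb away, at 0.01.

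The rest of the chromosome was close to the background of all genes. Of 744 other protein-coding genes of chromosome 6 that were tested, 68 (9.14%) were at an unadjusted p under 0.05 and 0 were called by edgeR, with a median size of change of 0.059 and 14.9% not overlapping. In steps of 5 Mb from *Slc13a4*, the 19 steps with at least 20 genes ran from 0.0% to 19.5% at that p. The steps on each side of *Slc13a4* held 3.45% (29 genes tested) and 3.33% (30 genes tested), counting the genes set aside above where they were tested, but not *Slc13a4*.

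**Figure D3:**
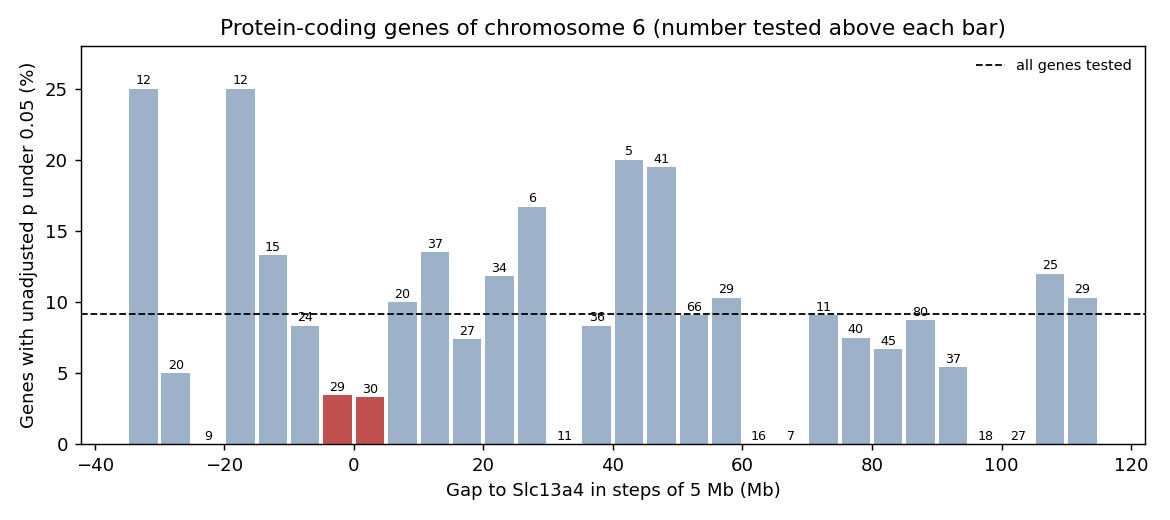
Share of the protein-coding genes of chromosome 6 with an unadjusted edgeR p under 0.05 (vertical axis, %) in steps of 5 Mb from *Slc13a4* (horizontal axis, Mb), *Slc13a4* left out, with the number of genes tested above each bar. The 2 steps beside *Slc13a4* (red) are at 3.45% and 3.33%, below the 9.15% of all genes tested (dashed line).

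The members were also read in small lists by function. Of the 2 members at an unadjusted p under 0.05, *Trim24* stands in the lists of transcription and antiviral genes but not in that of the ubiquitin system, and *Slc23a4*, a transporter at 0.90, stands in none. The 7 neuronal surface and signalling genes ran from -0.10 to 0.01. Among them *Ptn*, *Tmem178b* and *Plxna4* were the most abundant. *Plxna4*, a semaphorin receptor, was at 179, 194 and 190 CPM in *Slc13a4*+/- and 175, 171 and 214 CPM in wild-type, with Nas2Del_WT_1026 above all others, and a log2 fold change of 0.01. The 4 kinases ran from -0.06 to 0.10. *Braf*, a kinase of the MAP kinase cascade, was at 187, 198 and 193 CPM in *Slc13a4*+/- and 168, 177 and 204 CPM in wild-type, again highest in Nas2Del_WT_1026, with a log2 fold change of 0.08 (SE 0.07). *Hipk2*, a homeodomain-interacting kinase, had -0.06.

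The 8 genes of transcription and RNA handling ran from -0.06 to 0.15. Among them *Mkrn1*, an E3 ubiquitin ligase, was at 0.01 (SE 0.03), *Kdm7a*, a histone demethylase, at -0.06 (SE 0.05) and *Luc7l2*, a protein of the U1 snRNP, at 0.06 (SE 0.06). The 5 listed genes of the ubiquitin system ran from -0.04 to 0.01, without *Trim24*, which is at 0.15. These include *Klhdc10*, a substrate receptor of cullin ligases, at 0.00. The 5 antiviral and PARP genes ran from -0.09 to 0.15, with the RNA-binding antiviral protein *Zc3hav1* at -0.09 and the ADP-ribosyltransferase *Parp12* at -0.01.

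The 9 listed genes of membrane traffic and transport ran from -0.01 to 0.09, and 8 of them were above 0. *Slc23a4*, at 0.90, is not among these 9. *Exoc4*, a subunit of the exocyst, was at 0.00, *Slc35b4*, a nucleotide-sugar transporter, at 0.01 and *Slc37a3* at 0.04. The 3 genes of cilia and centrosomes were all below 0: *Ttc26*, an intraflagellar transport protein, at -0.01, *Agbl3*, a tubulin carboxypeptidase, at -0.07 and *Cep41*, a centrosomal protein, at -0.14 (SE 0.09). The 3 genes of the cytoskeleton, *Mtpn*, *Mkln1* and *Cald1*, ran from -0.01 to 0.01.

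The 3 aldo-keto reductases that were members ran from -0.14 to 0.03. *Akr1b3*, aldose reductase of the polyol pathway, was at 35.6, 33.8 and 35.5 CPM in *Slc13a4*+/- and 36.0, 33.8 and 32.9 CPM in wild-type, and its log2 fold change was 0.03 (SE 0.04). *Akr1b10* was at 0.01 and *Akr1b8*, under 1 CPM, at -0.14 (SE 0.21). Reads of these similar genes may have been divided between them by the quantification. Of the metabolic genes, *Bpgm*, the bisphosphoglycerate mutase of red cells, was at -0.08 (SE 0.04) and *Tbxas1*, thromboxane synthase, at -0.07 (SE 0.11). The mitochondrial genes *Chchd3*, a subunit of the cristae-organising complex, and *Adck2* were at -0.07 (SE 0.04) and -0.03. *D630045J12Rik* was at -0.09 (SE 0.06).

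Splicing differences can appear in single transcripts while the gene total stays level. The members have 323 transcripts in the files (1 to 18 per gene), of which 183 had enough counts to be tested among 55196. None was called by edgeR at an adjusted p of 0.1, where 0.00544% of all transcripts were, and the smallest adjusted p was 0.667. At an unadjusted p under 0.05 there were 12 in 7 genes, against 7.38% of all transcripts. Of the 183 tested, 11 were higher in *Slc13a4*+/- at that p, against 4.01% of all transcripts tested, and 1 was lower. Without Nas2Del_Het_1027, 6 member transcripts were at that p. DESeq2 without offsets put 15 member transcripts at that p, which is 5.26% of the 285 it gave a p, against 5.06% of all transcripts, and called 0, against 0.712%.

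Among the 11, 7 were retained-intron transcripts and 2 were annotated to nonsense-mediated decay. Of the 49 retained-intron transcripts of members tested, 39 (79.6%) were above 0 with a median log2 fold change of 0.34, and of all 12142 tested 81.1% were above 0 with a median of 0.34. At an unadjusted p under 0.05 and higher there were 7 of 49, where 9.85% of all retained-intron transcripts were. The 11 nonsense-mediated decay transcripts of members had a median of 0.29, and 2 of them were higher at that p, where 3.94% of all such transcripts were. The 110 protein-coding transcripts of members had a median of -0.03 (all -0.04), and 3 of them were at that p in either direction, where 6.73% of all were.

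The share of all counts in retained-intron transcripts was 2.03%, 2.45% and 2.15% in *Slc13a4*+/- and 1.86%, 2.02% and 1.81% in wild-type, without overlap. The share of the members' counts was 7.55%, 8.55% and 7.81% in *Slc13a4*+/- and 7.09%, 7.37% and 7.96% in wild-type, and here Nas2Del_WT_1026 was inside the *Slc13a4*+/- range. The part of unspliced or nuclear RNA in these values was not tested.

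*Luc7l2*, itself a splicing factor, held 4 of the 12 transcripts. Its retained-intron transcript Luc7l2-203 was at 7.27, 9.23 and 6.86 CPM in *Slc13a4*+/- and 5.2, 5.97 and 5.99 CPM in wild-type, without overlap, with a log2 fold change of 0.45 (SE 0.14). Another retained-intron transcript was at 0.60, Luc7l2-202 at 1.05 and Luc7l2-204 at 0.59, both of these annotated to nonsense-mediated decay. Retained-intron and decay transcripts together took 17.1%, 22.4% and 18.0% of the counts of *Luc7l2* in *Slc13a4*+/- and 13.5%, 14.5% and 13.9% in wild-type, a share computed after the transcripts had been seen. The gene's total overlapped between genotypes.

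The other transcripts among the 10 with the smallest p came from *Parp12*, *Mkln1*, *Mkrn1*, *Trim24* and *Hipk2*. Parp12-202 (retained intron) was at 0.283, 0.546 and 0.317 CPM in *Slc13a4*+/- and 0.167, 0.116 and 0.155 CPM in wild-type, with a log2 fold change of 1.37 (SE 0.40). Mkln1-206 (retained intron), from the gene of muskelin, a subunit of the CTLH ubiquitin ligase, was at 0.58 (SE 0.20). Mkrn1-205 and Trim24-207, also retained introns, were at 1.12 and 0.64. Mkrn1-206, annotated as protein-coding, was at 18.6, 17.7 and 18.3 CPM in *Slc13a4*+/- and 15.6, 17.2 and 14.9 CPM in wild-type, with a log2 fold change of 0.19. The only lower one was Hipk2-204, also protein-coding, at 2.49, 3.85 and 1.49 CPM in *Slc13a4*+/- and 6.06, 4.22 and 4.76 CPM in wild-type. Its log2 fold change was -0.94 (SE 0.35), and it took 3.31% to 7.78% of *Hipk2* counts in *Slc13a4*+/- and 8.46% to 12.9% in wild-type.

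**Figure D4:**
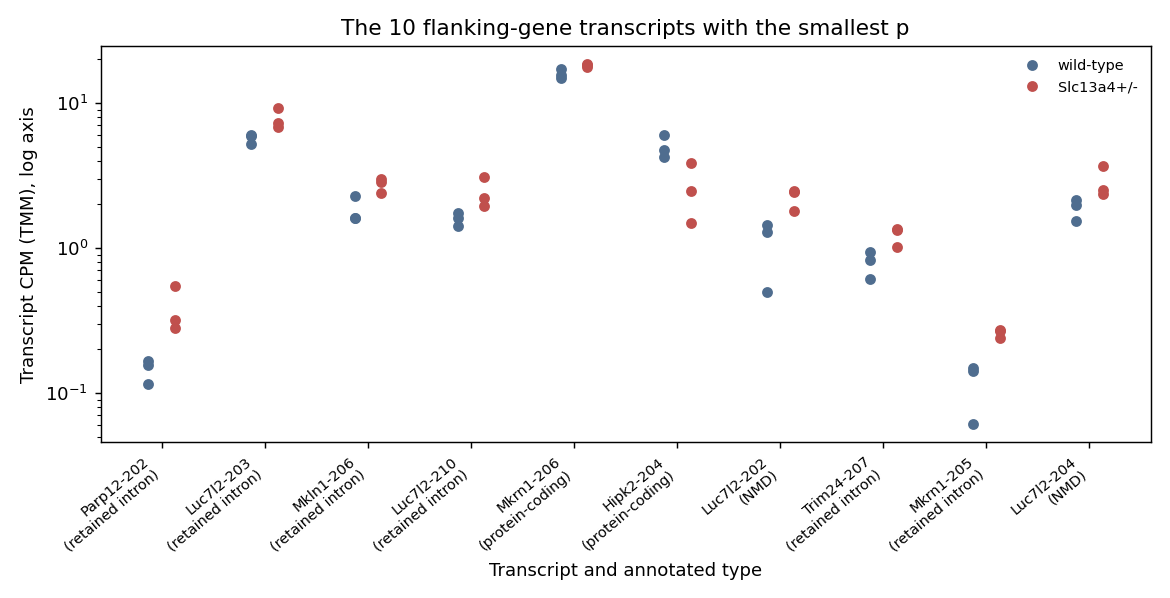
Level in CPM on a log axis (vertical) of the 10 member transcripts with the smallest p in the transcript fit (horizontal axis, with the annotated type), in each of 3 wild-type mice (blue) and 3 *Slc13a4*+/- mice (red). The genotypes do not overlap in any of these 10, which were chosen by their p, and only Hipk2-204 is lower in *Slc13a4*+/- (1.49 to 3.85 against 4.22 to 6.06 CPM).

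A linked splicing variant could also appear as a transcript present in every mouse of one genotype and at 0 in the other. The *Slc13a4*+/- mice also carry a wild-type chromosome 6, so this readout serves for a transcript gained in them. A transcript lost from the linked segment alone would be lowered in them but not reach 0. Of 169 member transcripts with enough counts in one genotype to be judged, 0 were at 0 in all 3 mice of one genotype with at least 10 estimated counts in each mouse of the other. Over all genes 112 of 50127 transcripts (0.223%) met this, 71 of them at 0 in wild-type and 41 at 0 in *Slc13a4*+/-. Of the 112, 9 lay on chromosome 6, the nearest in *Grm8*, a metabotropic glutamate receptor 7.13 Mb away and outside the window. Grm8-203 was at 0 in all 3 *Slc13a4*+/- mice and at 121.3, 259.8 and 119.1 estimated counts in wild-type. A listed 0 of one transcript among several of a gene can be a matter of how reads were divided. Sequence variants within reads were not analysed here.

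Nas2Del_WT_1026 weighed on these values, being the highest of all 6 mice in 19 of the 54 members. The same count was not made over all genes, where this mouse also stood farthest from its genotype mates. Without Nas2Del_WT_1026 the smallest adjusted p of a member in edgeR was 0.107, for *Braf* at a log2 fold change of 0.16. *Tmem178b* was then at 0.14, *Trim24* at 0.16, *Ptn* at -0.09, *Fam180a* at -0.43 and *Slc23a4* at 0.86. *Fam180a* was at 0.03 without Nas2Del_WT_1016, so the sign of its difference turned on the mouse left out.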

How the data were processed

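Stranded, rRNA-depleted libraries were made from whole forebrain of 6 mice, 3 per genotype, at P20. The authors quantified transcripts with Salmon (version 1.2.0) and deposited, for each transcript, estimated counts and TPM. No source used here names the transcripts or the build that Salmon was run against. Of 117135 transcripts, 115973 were matched by identifier without version to GENCODE M21 (GRCm38), giving 35523 genes. The 1162 unmatched held 0.62% to 0.645% of counts and were left out.

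Estimated counts of a gene's transcripts were added up and the sums rounded. Depth was 60340337 to 80410582 counts per mouse, and counts under about 10 per mouse give little precision. Genes were tested by quasi-likelihood in edgeR 4.0.16 under R 4.3.3, after filterByExpr and TMM scaling, with Benjamini-Hochberg adjustment over all 17096 genes and a threshold of 0.1. The same test was run on 55196 transcripts. The deposited TPM values served to compare levels between genes and for transcript-length offsets. The DESeq2 Wald test (DESeq2 1.42.0), other scalings and filters, removal of retained-intron transcripts and leaving out each mouse were alternatives. The scripts were tested on simulated data. Python 3.11.15 was used to join files and draw plots.

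The members, gene lists and rule for named genes were chosen with earlier results of these data known. The rule took *Slc13a4*, the 5 nearest members on each side, the 10 members with the smallest p, up to 3 of the most abundant members of each function list, the 10 member transcripts with the smallest p, the ends of the window, and *Nnt* and *Gabra2*. For 1 gene under this rule no result is given here. *Klrg2*, *Grm8*, *Fth-ps2*, *Ddx3y* and the low-count genes named beside the read minimum were named after their values were seen. Reads within 2 overlapping genes depend on a strand setting that no source used here states. Promoter sequences are RefSeq's.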

Additional observations from a re-analysis of the deposited data

How the results depend on the processing

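No member was called as reported or under any of 14 alternative gene settings and 11 alternative transcript settings. The count of 2 members at an unadjusted p under 0.05 became 1 with a filter of at least 1 CPM in 3 mice, 0 in DESeq2 with length offsets, 1 in DESeq2 without offsets, 1 in edgeR with length offsets and 1 without retained-intron transcripts, and leaving out 1 mouse gave 2 to 12, the highest without Nas2Del_WT_1026. The count of 3 members without overlap was 4 to 22 with 1 mouse left out, and the 12 member transcripts were 6 to 13. The cause of these differences was not tested. *Slc13a4* was called in DESeq2 with length offsets (-0.63, adjusted p 0.00238), in DESeq2 without offsets (-0.67, 2.80e-04), in edgeR with no low-count filter (-0.67, 0.00212) and in edgeR without Nas2Del_WT_1026 (-0.76, 0.0588). With 1 mouse left out it ran from -0.76 to -0.58, and over the alternatives its adjusted p ran from 2.80e-04 to 0.858.

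Over 544 alternative values of the 39 named members, 30 changed sign, in 15 members, and none of these was past an unadjusted p of 0.05 as reported. The paper describes the wild-type controls as littermates, but no source used here says which animals shared a litter. No paired analysis was therefore possible. With 3 mice per genotype, members under 1 CPM allow large changes in either direction.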

Other observations

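Among non-coding genes of the window, 106 are annotated, 28 are in the files and 3 had enough counts to be tested. The lincRNA *1810058I24Rik*, 4.5 kb from *Slc13a4*, was at 9.75, 9.53 and 9.6 CPM in *Slc13a4*+/- and 9.09, 9.25 and 9.64 CPM in wild-type, a log2 fold change of 0.05 (SE 0.06) between overlapping genotypes. The pseudogene *Gm13835* was at -0.18 (SE 0.35). The ferritin pseudogene *Fth-ps2*, 4345.3 kb away, was at 0.257, 0.217 and 0.241 CPM in *Slc13a4*+/- and 0.0451, 0.0331 and 0.115 CPM in wild-type. The genotypes did not overlap, at a log2 fold change of 1.79 (SE 0.43), and edgeR quasi-likelihood gave an adjusted p of 0.499. It rests on 15 to 20 estimated counts against 2 to 9, and its reads may be shared with other ferritin heavy chain copies.

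A check of strain used *Nnt* and *Gabra2*, which carry mutations private to the C57BL/6J substrain. *Gabra2*, a subunit of the GABA-A receptor that the C57BL/6J mutation lowers, was at 60.2, 108 and 58.0 CPM in *Slc13a4*+/- and at 106, 59.8 and 64.1 CPM in wild-type. The high values were those of Nas2Del_Het_1025 and Nas2Del_WT_1016, 1 mouse of each genotype, so the split did not follow genotype (log2 fold change -0.03, SE 0.28). *Nnt*, the mitochondrial transhydrogenase, ran from 2.33 to 4.75 CPM over the 6 mice with overlapping genotypes. *Ddx3y*, a gene of the Y chromosome, was at 105 CPM in Nas2Del_WT_1016 and at most 0.0331 CPM in the other 5 mice. By this gene alone, Nas2Del_WT_1016 read as male and the other 5 mice, with all 3 *Slc13a4*+/- mice among them, as female. Sex was thus unevenly divided between the genotypes, and its part in the values above was not tested.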
